A study of Drosophila melanogaster with 6 samples.

Results

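Among the 63 genes that the platform annotation names on these arrays, 5 genes of chromosome 2 of Drosophila melanogaster that lie next to the centromere are described here: light (lt), concertina (cta), Cht10, Gprk1 and p120ctn. They were chosen by name from earlier results of the same arrays, as the named genes of that region that were lower in the mutants past the threshold, so their mutant over wild-type ratios are given as a description, with no test. Each has 1 named spot on the array. The mutants (En/GsbN) were embryos heterozygous at both engrailed and gooseberry-neuro, and they were compared with wild-type Oregon embryos. Both were raised at 25°C, and total RNA of 3 biological replicates of each genotype was hybridised together, each replicate on 2 arrays with the dyes Cy3 and Cy5 exchanged, which gives 6 arrays. The sources used here give no embryo stage, age, allele or stock, and the labels name no control with the mutants' own background. Genotype and stock therefore cannot be told apart.

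Genes next to a centromere lie in or beside heterochromatin, the compact, repeat-rich part of the chromosome that silences most genes placed into it. A minority of fly genes nevertheless reside there, and light is a classic example, since it needs its heterochromatic surroundings for normal expression and becomes variegated when it is moved away from them. The RNA came from whole embryos, so fewer cells that express a gene and less RNA per cell cannot be told apart in any of these values.

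The reference annotation (Release 6) placed all 5 genes close to the centromere. On arm 2L, which has 2657 protein-coding genes, Cht10, cta and lt had 4, 5 and 6 protein-coding genes between them and the centromeric end, so the 3 genes follow each other directly. On arm 2R, with 2851 such genes, Gprk1 had 22 and p120ctn 25 between it and the centromere. Both mutated genes lie on the same arm, farther out: 816 protein-coding genes separate p120ctn from engrailed and 2810 separate it from gooseberry-neuro. No named probe stood for either of them, so the genotype labels were not checked against the mutated genes.

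On each array the ratio was computed as log2 of mutant over wild-type signal after background correction and loess normalization, and both arrays of a replicate were averaged. Each unit on this scale is 1 doubling. Signal was above background, meaning at 2 or more times the local background, for 39.8% to 64.4% of the 14628 tested probes where the mutant RNA was read and for 38.5% to 64.1% where the wild-type RNA was. Over all these probes, which are not independent of each other, the ratios correlated at 0.873 to 0.945 between the 2 arrays of a replicate and at 0.583 to 0.788 between replicates. The named probes hold no fixed list of embryo markers, so the tissue label was not checked.

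Transcripts of all 5 genes were lower in the mutants on all 6 arrays, a pattern shared by 19.7% of all tested probes and by 31.7% of the 8083 that were above background on at least 3 arrays in either channel. The means lay between a log2 ratio of -1.15 for Cht10 and lt and -0.55 for p120ctn, that is, between 45.0% and 68.4% of the wild-type level. By construction all 5 were past the threshold in limma, which 10.5% of the tested probes passed in that direction (18.9% of those above background) and 17.7% in either direction, and nothing is read from that count. With replicate 2 left out, 0 of the 5 passed, and 0 of all tested probes did, of which 2871 had an unadjusted p under 0.05. The call of p120ctn also ended without replicate 1 or 3. Over 15 alternative settings of the fit, p120ctn lost the call in 11, Cht10 in 7, and lt, cta and Gprk1 in 2 each. The share of all called probes that lost their call was not counted. The genes were chosen by this call, so a kept call is no support for them.

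**Figure D1:**
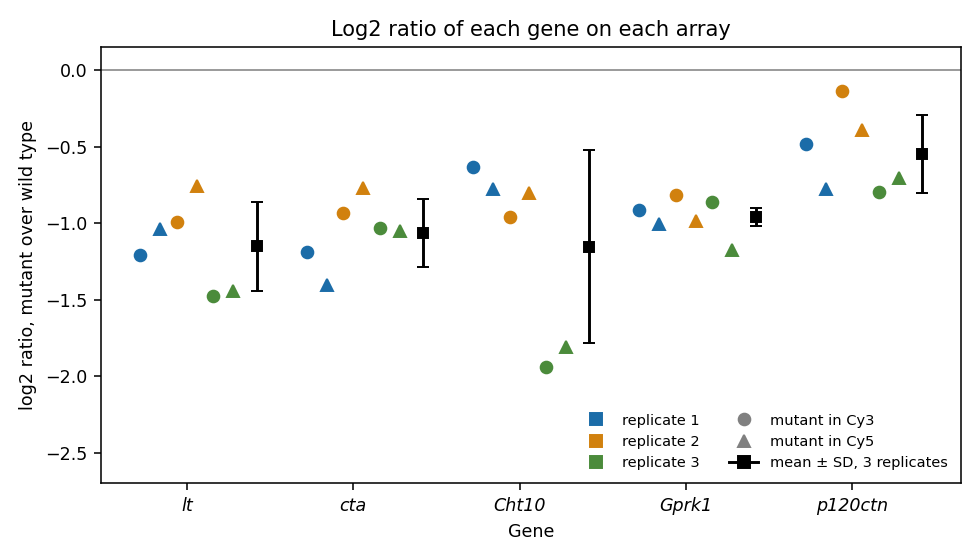
Log2 ratio of mutant over wild type (vertical axis) for each gene (horizontal axis) on each of the 6 arrays, coloured by biological replicate and shaped by the dye that carried the mutant RNA. Black squares and bars are the mean and SD over 3 replicates. All points lie below 0, replicate 3 of Cht10 stands lowest at -1.94 and -1.81, and p120ctn comes nearest to 0 at -0.14.

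The gene light encodes the fly Vps41, a subunit of the HOPS complex that tethers vesicles and endosomes to the lysosome and to pigment granules. With the mutant RNA in Cy3, its spot volume (pixel level times spot area, before any correction) was 14.8, 13.5 and 4.91 for the mutants in replicates 1, 2 and 3, against 32.5, 24.9 and 8.72 for wild type in Cy5. With the dyes exchanged, the volumes were 15.9, 10.9 and 3.07 for the mutants, against 36.2, 23.3 and 8.75 for wild type. The mutant volume was thus the lower one on each array, whichever dye carried it. With the mutant in Cy5, the median volume of all tested probes was lower for the mutants too. It was 2.66, 3.79 and 1.68, against 4.8, 5.55 and 2.23 for wild type. With the mutant in Cy3 it was higher for the mutants, at 6.61, 3.63 and 3.74 against 3.9, 2.55 and 1.88. The lt spot was above background in both channels on all 6 arrays. The mutant signal was lowest in replicate 3 in Cy3, at 2.16 times its local background.

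After normalization the log2 ratio of lt was -1.12, -0.87 and -1.46 in replicates 1, 2 and 3, a mean of -1.15 ± 0.29 (SD, n = 3), or 2.22-fold lower. Single arrays ranged between -1.47 and -0.76. The normalized log2 level averaged 3.19 ± 0.51 in mutants and 4.34 ± 0.25 in wild type. Replicate 3 had the lowest mutant level, 2.61, and also the lowest wild-type level, 4.07, and no mutant replicate reached the wild-type range. The genes were chosen for low ratios, and the share of all probes without overlap between the genotypes was not counted. Nothing is therefore read from such a separation, here or for the genes below.

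The next gene toward the centromere, cta, encodes the G protein alpha subunit that relays the Folded gastrulation signal inside the cell, and embryos of mothers that lack it fail to fold the ventral furrow and the posterior midgut properly. Mutant volumes in Cy3 were 7.01, 4.84 and 2.46, against 15.9, 8.92 and 3.86 for wild type in Cy5. In the exchanged orientation they were 5.89, 4.96 and 2.08 for the mutants and 19.9, 11.1 and 5.13 for wild type. Again each array had the lower volume in the mutant channel.

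The log2 ratio of cta was -1.30, -0.85 and -1.04 in the 3 replicates, and averaged -1.06 ± 0.22, or 2.09-fold lower. Its normalized log2 level was 2.25 ± 0.20 in mutants and 3.31 ± 0.34 in wild type, with no overlap between the genotypes. On the array of replicate 3 with the mutant in Cy3, the mutant signal was only 1.67 times its local background, so cta counted as above background on 5 arrays for mutant RNA and on all 6 for wild-type RNA. That array's value depended on the processing, though which step mattered was not tested. It was -1.03 here, with the other arrays between -1.41 and -0.77. In the authors' deposited table it was -1.55, the lowest of the 6 there.

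Cht10, which follows cta on the chromosome, encodes a chitinase, an enzyme that degrades the chitin of cuticle and tracheae. The mutants gave volumes of 7.03, 8.72 and 2.85 in Cy3, against 9.53, 15.3 and 7.68 for wild type in Cy5, and of 6.97, 8.10 and 2.05 in Cy5, against 15.3, 16.2 and 8.81 for wild type in Cy3. The ratio between the volumes, though not their difference, was farthest from 1 in replicate 3 in both orientations.

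Its replicates were the most uneven of the 5 genes, with log2 ratios of -0.71, -0.88 and -1.87 and a mean of -1.15 ± 0.63, or 2.22-fold lower. The SD exceeded that of 95.6% of the tested probes, without regard to their level. Replicate 3 combined the lowest mutant log2 level of Cht10, 2.00 against 2.43 and 2.86 in replicates 1 and 2, with its highest wild-type level, 3.87 against 3.14 and 3.74, and the genotypes did not overlap. The mutant signal there was close to background, at 1.28 times it in Cy3 and 2.46 times it in Cy5. Without replicate 3, the mean was -0.79.

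On the other arm, Gprk1 encodes a kinase that phosphorylates activated G protein-coupled receptors. Mutant volumes in Cy3 were 11.8, 8.07 and 3.71, against 21.7, 13.2 and 4.55 for wild type in Cy5. With the dyes exchanged, they were 10.8, 5.63 and 2.55 for the mutants and 25.6, 15.7 and 6.34 for wild type. The spot was above background in both channels on all 6 arrays. The mutant signal was lowest in replicate 3 in Cy3, at 2.18 times its local background.

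Gprk1 had the most even replicates, with log2 ratios of -0.96, -0.90 and -1.02, a mean of -0.96 ± 0.06 and a fold of 1.94 lower. Of the tested probes, 9.79% had a smaller SD. The even ratio came with levels that were not even: the normalized log2 level was 3.08, 2.79 and 2.36 in mutants and 4.04, 3.69 and 3.38 in wild type, so both genotypes were highest in replicate 1 and lowest in replicate 3, without overlap between the genotypes. Single arrays spread more than the replicate means, between -1.17 and -0.82, because in each replicate the array with the mutant in Cy5 gave the lower ratio.

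The catenin gene p120ctn encodes an armadillo-repeat protein that binds the cytoplasmic tail of cadherins at adherens junctions. Mutant volumes in Cy3 were 47.6, 31.4 and 12.2, against 63.5, 31.4 and 12.5 for wild type in Cy5, so on the arrays of replicates 2 and 3 the uncorrected volumes nearly coincided. On these arrays the median volume of all tested probes was higher for the mutants, at 3.63 against 2.55 and 3.74 against 1.88. In the exchanged orientation the p120ctn volumes were 43.9, 26.8 and 15.98 for the mutants, against 77.1, 41.5 and 19.1 for wild type. The p120ctn spot was at 8.40 or more times its local background in the mutant channel.

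Its log2 ratio was -0.63, -0.26 and -0.75, a mean of -0.55 ± 0.26, or 1.46-fold lower. The normalized log2 level was 4.69 ± 0.41 in mutants and 5.24 ± 0.39 in wild type, so that the levels of the genotypes overlapped between replicates although each array had the mutant lower. The array nearest to 0, at -0.14, was that of replicate 2 with the mutant in Cy3, and the other array of replicate 2 gave -0.39.

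**Figure D2:**
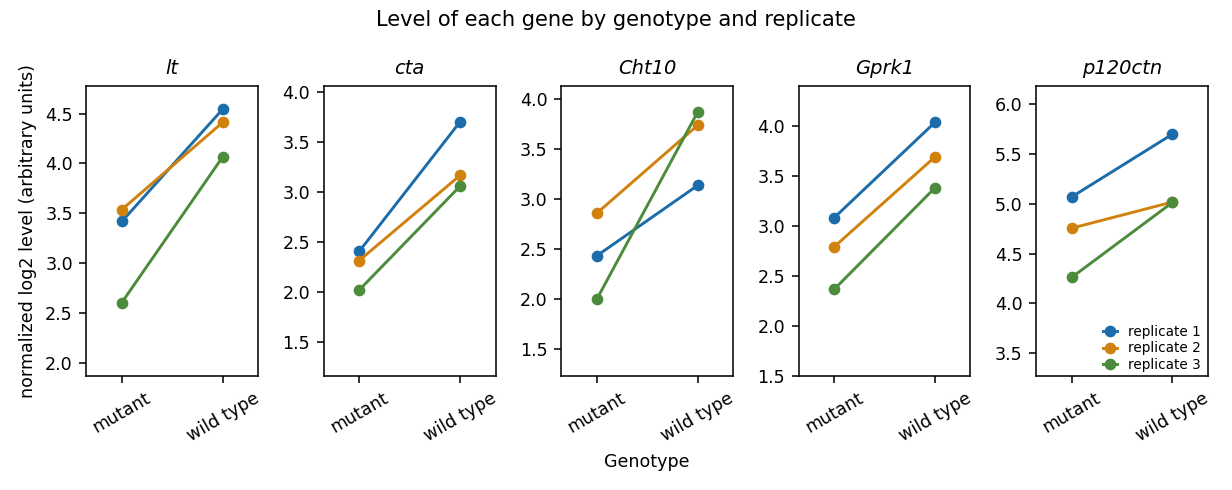
Normalized log2 level in arbitrary units (vertical axis, a separate range of equal width for each gene) in mutants and in wild type (horizontal axis), with 1 line for each biological replicate, averaged over its 2 arrays. Every line is lower at its mutant end. The lines of Gprk1 run nearly parallel, whereas replicate 3 of Cht10, at 2.00 in mutants and 3.87 in wild type, crosses the others.

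Ordered by the mean log2 ratio, Cht10 and lt came lowest, followed by cta, Gprk1 and p120ctn. The first 4 did not separate beyond their spread: lt minus Gprk1 was -0.19 ± 0.24 over the 3 replicates, Cht10 minus Gprk1 was -0.19 ± 0.58, and cta minus Gprk1 was -0.10 ± 0.21, each with replicates on both sides of 0. The last step was larger. Gprk1 minus p120ctn was -0.41 ± 0.20, and lt minus p120ctn was -0.60 ± 0.11. Each of the other 4 genes was lower than p120ctn in all 3 replicates, by as little as -0.08 for Cht10 in replicate 1.

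The dye that carried the mutant RNA is a comparison that did not choose these genes, because the dye effect cancels in the mean of a pair of arrays. The log2 ratio with the mutant in Cy3 minus that with the mutant in Cy5 was -0.15 ± 0.10 for lt, 0.03 ± 0.19 for cta, -0.05 ± 0.17 for Cht10, 0.19 ± 0.11 for Gprk1 and 0.15 ± 0.21 for p120ctn (SD, n = 3). None of the 5 passed the threshold in limma (adjusted p between 0.651 for Gprk1 and 0.962 for cta), where 0.0205% of all tested probes did. A p that misses the threshold does not show that the dyes acted alike. Gprk1 had the difference above 0 in all 3 replicates, at 0.09, 0.17 and 0.31, and lt had it below 0 in all 3. These dye differences were smaller in size than the mean ratio of their gene in each case. The means of each orientation alone are parts of the ratio that chose the genes. That each gene was lower in each orientation follows from its being lower on every array, and is no further support. With the mutant in Cy3, Gprk1 averaged -0.86 and p120ctn -0.47, and with it in Cy5, -1.05 and -0.62.

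The 5 spots lay in 5 different printed blocks of the array. The median log2 ratio of all tested probes in the block of lt lay between -0.14 and 0.03 over the 6 arrays, and in the block of Cht10 between -0.08 and 0.08. For the blocks of cta, Gprk1 and p120ctn the medians were all between -0.06 and 0.10. The authors' deposited table of log2 ratios, made with their own normalization from the same scans, gave lt between -1.64 and -0.78, cta between -1.55 and -0.77, Gprk1 between -1.33 and -0.82, and p120ctn between -0.79 and -0.12 on the 6 arrays. Cht10 lay there between -2.15 and -0.63. Since the scans are shared, these values show the effect of the processing and are no second measurement. Background correction and normalization were not told apart in this comparison.

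The neighbourhood held other named genes, which were not among those chosen. Within 100 protein-coding genes of the centromere, 10 genes of chromosome 2 had a named probe, the 5 described and 5 more, all of these on arm 2R. Stlk, a Ste20-like kinase gene, lies between Gprk1 and p120ctn, where RpL38 is the only other protein-coding gene, and was just outside the choice at -0.53, -0.25 and -0.41 in the replicates (mean -0.40 ± 0.14), while p120ctn was just inside. Stlk was lower in the mutants on all 6 arrays. Haspin, a kinase gene for histone H3, was also lower on all 6 arrays, at -0.80, -0.37 and -0.13 (-0.43 ± 0.34). That pattern was not particular to this neighbourhood. It was shared by 31.7% of all probes above background and by 4 of the 13 named genes of chromosome 2 above background farther out. Stlk and Haspin each passed the threshold in 2 of 15 alternative settings of the fit.

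The other 3 neighbours had means near or above 0. Scp1, which encodes a calcium-binding protein of the sarcoplasm, was at 0.00 ± 0.17, and Nipped-B, which encodes the loader of cohesin, at 0.04 ± 0.13. Scp1 was above background in mutants on 0 arrays and in wild type on 2, and Nipped-B on 0 and 1, so for these spots a difference was not detectable. The brighter of the probes of CG17684 was at 0.22 ± 0.29, with 3 arrays above and 3 below 0, and its ratio followed the dye: the value with the mutant in Cy3 minus that with the mutant in Cy5 was -1.49 ± 0.79 (adjusted p = 0.0899 in limma, n = 3). Its other probe, at 0.12 ± 0.08, was not above background on any array. Among named genes next to the centromere with signal above background on at least 3 arrays in either channel, the 3 of arm 2L were thus all described here, and the means of the 5 on arm 2R ran between -0.96 for Gprk1 and 0.22 for CG17684.

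**Figure D3:**
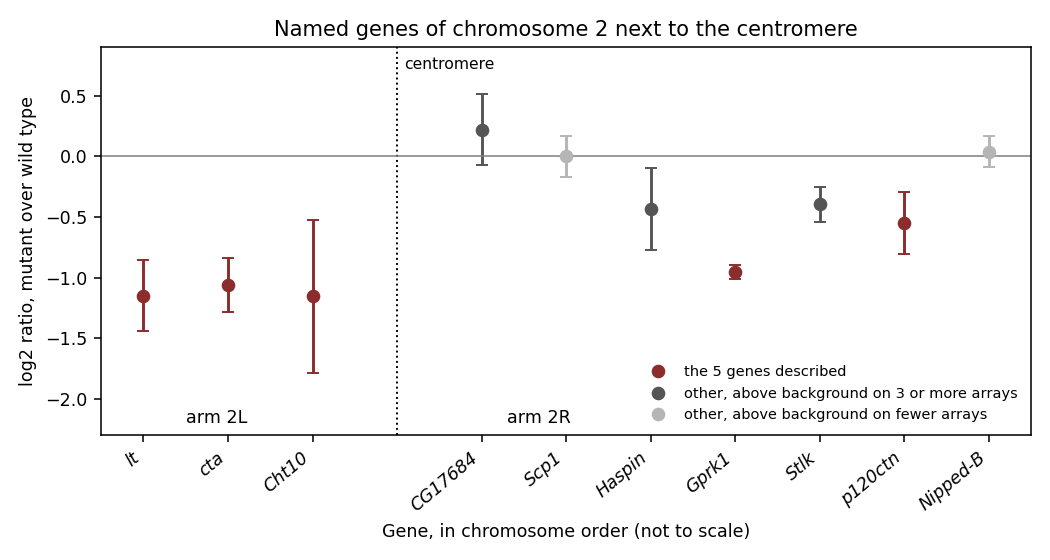
Mean log2 ratio of mutant over wild type (vertical axis, bars are the SD over 3 replicates) for the 10 named genes within 100 protein-coding genes of the centromere of chromosome 2, in chromosome order and not to scale (horizontal axis). The 5 genes described lie at or below -0.55, and Stlk at -0.40, between Gprk1 and p120ctn, and Haspin at -0.43 lie nearest to them.

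Farther out on both arms 15 genes had a name, and 13 of them were above background on at least 3 arrays in either channel. Of the 15 genes, 1 was lower and 2 were higher past the threshold, against 10.5% and 7.21% of all tested probes, and their median was 0.01, as over all tested probes. Over those above background, the median was 0.13 for the 13 genes and -0.05 for all probes. Glycogenin (Gyg) was lower on its brighter probe, at -2.10 ± 0.50 (adjusted p = 0.01 in limma), but not on its other probe, at -0.26 ± 0.37 (adjusted p = 0.372). Nop60B, which encodes a pseudouridine synthase that modifies ribosomal RNA, was higher at 0.47 ± 0.03 (adjusted p = 0.0245), and RpLP0-like at 0.49 ± 0.10 (adjusted p = 0.0286). All 3 calls ended without replicate 2, that of RpLP0-like also without replicate 3, and that of Nop60B without any 1 of the 3 replicates.

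None of the other 10 detected genes farther out passed the threshold. On arm 2L, the mitochondrial aconitase gene mAcon1 was at -0.64 ± 0.33, CG10949 at 0.41 ± 0.31, CG3558 at 0.21 ± 0.05 and the thymidylate synthase gene Ts at 0.13 ± 0.67. On arm 2R, CG4294 was at -0.67 ± 0.42, CG9485 at -0.40 ± 0.28, Dscam1 at -0.38 ± 0.47, alc at -0.29 ± 0.56, Mccc2 at 0.54 ± 0.44 and CG13323 at 1.09 ± 1.61. Of these 10 genes, mAcon1, the nearest named gene on the 2L side with 192 protein-coding genes between it and the centromere, had its replicates at -0.27, -0.91 and -0.73. Its adjusted p in limma was 0.0507, and it passed the threshold in 8 of 15 alternative settings.

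The named genes whose 6 ratios came closest were often other genes of the 5, which follows in part from choosing them for low ratios. Over the 6 arrays, the root mean square difference was smallest between cta and Gprk1, at 0.24 on the log2 scale, although they lie on different arms. The chromosome neighbours lt and cta differed by 0.29, and lt and Cht10 by 0.35. Among genes of other chromosomes, vsg (arm 3L, mean -0.81) was at 0.27 from Gprk1. The RNA helicase gene Dbp80 (arm 3L, mean -0.70) was at 0.42 from cta and 0.28 from p120ctn. Whether these genes of other chromosomes lie near a centromere themselves was not checked. The closest to p120ctn on its own chromosome were Stlk, at 0.29, and CG9485, at 0.35. For Cht10 the second closest of 62 genes was the myosin light chain gene Mlc1, at 0.42, whose replicates were at 0.01, -0.98 and -1.89 and so were also lowest in replicate 3.

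The pathways of these genes were hardly represented among the named probes. Of 21 listed genes of the HOPS complex and vesicle traffic to lysosomes only lt had a named probe, and of 16 genes of Folded gastrulation signalling only cta. Of 14 listed names for receptor kinases and Hedgehog signalling, where kurtz and krz are the same gene, only Gprk1 had one. Of 15 genes of adherens junctions only p120ctn did. The chitin list of 32 genes held 1 measured gene besides Cht10, Gfat1, which makes the hexosamine precursor of chitin and lies on arm 3R. Gfat1 was lower at -0.68, -1.59 and -1.22 in the 3 replicates (-1.16 ± 0.46, adjusted p = 0.0233 in limma). A list of 16 genes for heterochromatin proteins held 1 measured gene, Parp1, which encodes poly(ADP-ribose) polymerase and lies on arm 3R. It was lower at -1.96 ± 0.47 (adjusted p = 0.0101 in limma). Distance to the centromere was computed for chromosome 2 only, so whether Parp1 itself lies near a centromere was not checked. Gfat1 and Parp1 also lost their calls without replicate 2, and these lists were drawn up with earlier results of these data known.

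The mean log2 ratios of the 5 genes were negative in all 12 settings in which they were recomputed. The settings that left out a replicate or kept a single dye orientation average array ratios that were all negative. Their sign was therefore fixed in advance. The genes were also chosen for low ratios, so the count of settings is no support for the direction. The size depended most on the offset that is added to the corrected volumes before the logarithm: with an offset of 50 on the deposited scale, which exceeds most signals, the log2 ratios were -0.23 for lt, -0.14 for cta, -0.15 for Cht10 and Gprk1 and -0.16 for p120ctn. In the other settings lt lay between -1.29 and -0.998, cta between -1.25 and -0.95, Cht10 between -1.39 and -0.79, Gprk1 between -1.09 and -0.86, and p120ctn between -0.69 and -0.42.

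**Figure D4:**
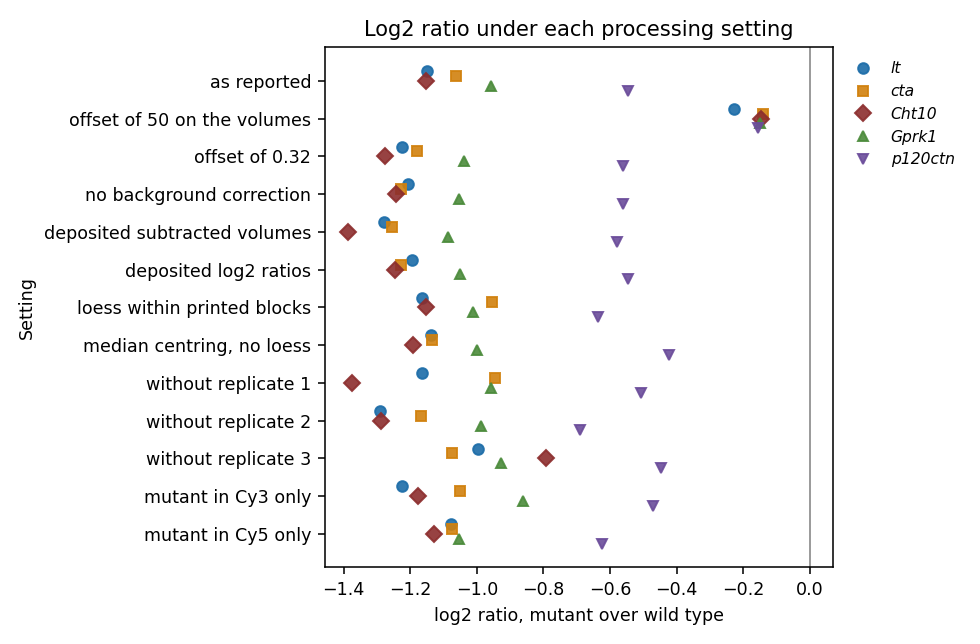
Mean log2 ratio of mutant over wild type (horizontal axis) of each gene under the reported setting and 12 others (vertical axis). All points lie below 0, those with an offset of 50 on the volumes lie between -0.23 and -0.14, and p120ctn lies nearest to 0 in each of the remaining settings.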

How the data were processed

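Per the file headers, the authors quantified the spots with ArrayVision, and deposited for either dye an intensity, the spot's volume in levels times area, beside a local background and a spot flag. The deposited log2 ratios of the authors' value table follow another spot order, recovered by matching them to the scanner volumes (correlation with log2 Cy3 over Cy5 of 0.992 to 0.994 with the mutant in Cy3, and -0.989 to -0.988 with it in Cy5). They are mutant over wild type. Their values served as an alternative only, but the annotation names spots by the rows of that table, so the identity of every named spot rests on this match; limma is named, without version, in the submitters' processing notes.

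Of 15744 spots, 1056 were taken as controls or blanks from their repeated layout and 60 more were flagged on at least 1 array, which left 14628 tested probes. Volumes were corrected with normexp and an offset of 1 and normalized by loess in limma 3.58.1 (R 4.3.3), with controls at weight 0. Ratios were averaged within replicates, and 3 values per probe were tested against 0 with lmFit and eBayes, with Benjamini-Hochberg adjustment over all tested probes and a threshold of 0.05. The dye difference was tested alike. Log2 levels by genotype were scaled with Aquantile. The number of biological replicates, 3, limits the precision. The platform annotation names 1 gene for 67 probes, and the gene IDs of 62 of these probes matched the reference table, which gave gene order. The unmatched genes, ATbp, CG17706, His2B:CG40461, kl-3 and kl-5, had no arm and entered no count for chromosome 2. Of a gene's probes the brighter stands for it. Text names the 5 genes, the 3 nearest to each, detected genes of chromosome 2 and measured list genes. The genes and lists were chosen with earlier results of these data known.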

Additional observations from a re-analysis of the deposited data

How the results depend on the processing

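With an offset of 50 on the deposited volumes, which exceeds most signals, the log2 ratios moved to -0.23 (lt), -0.14 (cta), -0.15 (Cht10), -0.15 (Gprk1) and -0.16 (p120ctn). Gprk1, with its SD of 0.06, also moved to -1.04 with an offset of 0.32, -1.05 without background correction, -1.09 with the deposited subtracted volumes, -1.05 with the deposited log2 ratios, -0.86 with the mutant in Cy3 only and -1.05 with it in Cy5 only. The other ratios moved by less than their SD. Of 15 settings of the fit, lt, cta and Gprk1 lost the call in 2 (offset of 50, and without replicate 2), Cht10 in 7 and p120ctn in 11. Because the genes were chosen by this call, a kept call is no support for them. The tested probes past the threshold, 2592 (1537 lower, 1055 higher), were 52 with the offset of 50 (10 lower, 42 higher), 3918 with all 6 arrays and a replicate block with a dye term, and 0 to 3176 with 1 replicate left out; the 0 came without replicate 2, with 2871 at an unadjusted p under 0.05. For the dye difference, 3 probes passed, against 0 with an offset of 50, with an offset of 0.32, without background correction, with the deposited subtracted volumes, with loess within printed blocks and with control spots kept (911 to 3141 at an unadjusted p under 0.05), 5 without the dimmest 25% of probes, and 5 to 43 with 1 replicate left out. Among the other 20 named genes of chromosome 2, 3 passed, against 0 with the offset of 50 (3 at an unadjusted p under 0.05), 5 with the offset of 0.32, 5 with the deposited subtracted volumes, 8 with the replicate block and dye term, and 0 to 6 with 1 replicate left out. The cause of these moves was not tested. Mutant and wild-type RNA of a replicate shared each array, so the ratios are paired by hybridisation. Dim spots limit Cht10 and cta most, with 1 array each where mutant signal was not above background.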
